A study of Mus musculus with 4 samples.

Results

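The nuclear genes of oxidative phosphorylation were read in lung group 2 innate lymphoid cells (ILC2s), lymphocytes without antigen receptors that make type 2 cytokines. The genes were taken by symbol: the Nduf genes of complex I, the Sdh genes of complex II, the Uqcr genes and Cyc1 of complex III, the Cox4 to Cox8 genes of complex IV, the Atp5 genes of complex V, and Cycs for cytochrome c. Of 97 matching names, 4 ended in -ps and were omitted, and 93 of the 55401 gene models remained. Of these, 86 were protein-coding and 7 were pseudogenes in the GENCODE M21 annotation. The 86 gene models comprised 36 for complex I, 4 for complex II, 9 for complex III, 1 for cytochrome c, 18 for complex IV and 18 for complex V. ILC2s purified from lungs of C57BL/6 mice had been cultured for 6 h with IL-33 plus angiotensin II (Ang II), a peptide hormone that raises blood pressure, or with IL-33 alone, an epithelial alarmin. Both groups therefore received IL-33, and unstimulated cells were not analysed here. Each group had 2 libraries, each made from 500 cells through amplified cDNA, and the labels do not say whether they came from separate mice or cultures.

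Oxidative phosphorylation moves electrons from NADH (complex I) and succinate (complex II) through ubiquinone, complex III and the small carrier cytochrome c to complex IV, which reduces oxygen. Complexes I, III and IV pump protons, and complex V, the ATP synthase, lets them flow back to make ATP. Most subunits are encoded in the nucleus and imported, while the mitochondrial genome supplies the rest of complexes I, III, IV and V. Activated lymphocytes use this system beside glycolysis, and ILC2s are known to depend on it.

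Levels are FPKM, fragment numbers scaled for transcript length and for the mapped fragments of the library, so they can be compared between genes. FPKM summed to 426140 and 394808 in the Ang II libraries and to 430980 and 431014 in the IL-33 libraries, and the depth behind them is unknown. The IL-33 libraries differed by 0.9 times counting noise among genes between 1 and 32 FPKM times kilobases of transcript, by 1.07 times between 32 and 256, and by 1.36 times between 256 and 2048. In the same ranges the Ang II libraries differed by 15.5, 20.1 and 25.9 times. The depth behind this noise was estimated from the IL-33 pair itself, which largely fixes its ratio in the lowest range, so that ratio is no independent check. Only genes with a mean transcript length above 1 kilobase entered this check, so shorter transcripts were not covered. The IL-33 pair, much closer than the Ang II pair at the same assumed depth, entered as 1 sample, against 2 Ang II samples. Some subunit genes differed more between the IL-33 libraries, such as Uqcr11 at 118 and 181 FPKM. Averaging leaves that difference out of their standard errors. Of 10 ILC2 markers 9 were measured, while Thy1 was at most 0.09 FPKM. The summed FPKM was 1786 and 1805 in the Ang II libraries and 1730 and 1736 in the IL-33 libraries. Single markers differed more than the sums. In 3 of the 9 both Ang II values lay above both IL-33 values, and in 0 below. Over all genes tested, 24.4% lay above and 33.5% below. Gata3 stood at 185 and 130 FPKM with Ang II against 104 and 108 FPKM with IL-33. Il2ra stood at 128 and 107 FPKM against 61.9 and 62.4 FPKM, and Ptprc at 23.1 and 28.7 FPKM against 12.4 and 12.2 FPKM. Markers of other cells were also present. The 5 haemoglobin and red cell genes summed to 3831 and 1591 FPKM with Ang II and to 25146 and 24943 FPKM with IL-33. T cell markers, 9 of 10 measured, summed to 926 and 456 FPKM with Ang II against 1270 and 1266 FPKM with IL-33. In all 9 both Ang II values lay below both IL-33 values. Macrophage markers, 6 of 9 measured, summed to 2034 and 950.2 FPKM with Ang II against 2141 and 2106 FPKM with IL-33. Of the 6, 4 lay below both IL-33 values, among them the most abundant, Lyz2. Marco, the 1 above, stood at 191 and 23.2 FPKM with Ang II and was listed at 0 with IL-33. Chil3 stood at 696 and 158 FPKM with Ang II against 212 and 210 FPKM with IL-33. Epithelial markers, 5 of 8 measured with Krt8, Krt18 and Sftpb at 0, summed to 80.1 and 200.8 FPKM with Ang II against 384 and 374 FPKM with IL-33. Neutrophil markers, 2 of 5 measured, summed to 59.2 and 36.3 FPKM with Ang II and to 206 and 198 FPKM with IL-33. B cell markers, 2 of 5 measured, summed to 92.2 and 3.1 FPKM with Ang II against 20.8 and 18.5 FPKM with IL-33, and NK and ILC1 markers, 1 of 6 measured, to 0.1 and 13.3 FPKM with Ang II against 0.2 and 0 FPKM with IL-33. The part of such cells in the values below was not tested, and fewer cells of a type and less RNA per cell cannot be told apart in these bulk samples.

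As a whole, the subunit genes had summed levels that overlapped between the groups. They summed to 12565 and 10882 FPKM in the Ang II libraries and to 11531 and 11499 FPKM in the IL-33 libraries, so the IL-33 sums lay between the Ang II sums. As a share of all FPKM they made up 2.95% and 2.76% in the Ang II libraries and 2.68% and 2.67% in the IL-33 libraries, and the smaller Ang II share exceeded the IL-33 shares by less than the Ang II shares differed from each other. The haemoglobin and red cell genes made up 0.899% and 0.403% of all FPKM with Ang II and 5.835% and 5.787% with IL-33. They leave a smaller share to all other genes in the IL-33 libraries, so the subunit shares are not comparable between groups without regard to them. No test was made on sums or shares, with 2 samples against 1. Of the 86 gene models, 80 reached a mean of 1 FPKM and were tested, and the other 6 were listed at 0 in all 4 libraries. Those 6 were Cox4i2, Cox6a2, Cox7b2, Cox8b, Cox8c and a second model of Atp5o. By the limma test, two-sided and adjusted over 9215 genes after Benjamini and Hochberg, no subunit gene was below 0.05 and no other gene was (0% called), with a smallest adjusted p of 0.241 among the subunit genes. At an unadjusted p under 0.05 in the same limma fit, 2 subunit genes were higher with Ang II (Cox7a2l and Atp5g2) and 0 were lower, where 257 of all genes tested (2.79%) were higher and 996 (10.8%) lower. Cox7a2l and Atp5g2 were under 1 FPKM in both IL-33 libraries and passed the filter through the Ang II libraries alone. Their place among the tested genes thus depended on the contrast itself. The shares over all genes tested come mostly from genes less abundant than the subunit genes. With 1 IL-33 sample the fit has 1 residual degree of freedom, so a count of 0 does not show that the genes were alike.

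Individual subunit genes differed in both directions. In 28 of the 80 tested genes (35.0%) both Ang II values lay above both IL-33 values, against 24.4% of all genes tested, and in 25 (31.2%) both lay below, against 33.5%. The remaining 27 had overlapping groups. Most genes tested were less abundant, with a median of 7.75 FPKM in IL-33 replicate 1 against 94.7 FPKM for the subunit genes. Among genes that averaged 20 FPKM or more, 33.8% of 74 subunit genes lay above and 31.1% below. Of all 2646 such genes, 29.6% lay above and 36.1% below. The shares above were thus nearer to each other than without this limit, while the shares below were further apart. The median log2 fold change, on the log2(FPKM + 1) scale, was 0.0028 over the 80 genes and -0.0037 over all genes tested, and it was 0.11 and -0.084 for the separate Ang II libraries. The median absolute log2 fold change was 0.48 over the 74 subunit genes that averaged 20 FPKM or more and 0.69 over all 2646 such genes. The median gap between the Ang II libraries on that scale was 0.54 over these 74 genes and 0.73 over the 2646. In 46 of the 80 genes (57.5%) the gap between the Ang II libraries exceeded the fold change, and this share was 59.8% over all genes tested. Across the 80 genes, log2(FPKM + 1) of the Ang II libraries correlated at Pearson r = 0.66 (Spearman rho = 0.81), and Ang II replicates 1 and 2 correlated with the IL-33 mean at r = 0.68 and 0.70. These are descriptions across genes, which share their libraries.

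**Figure D1:**
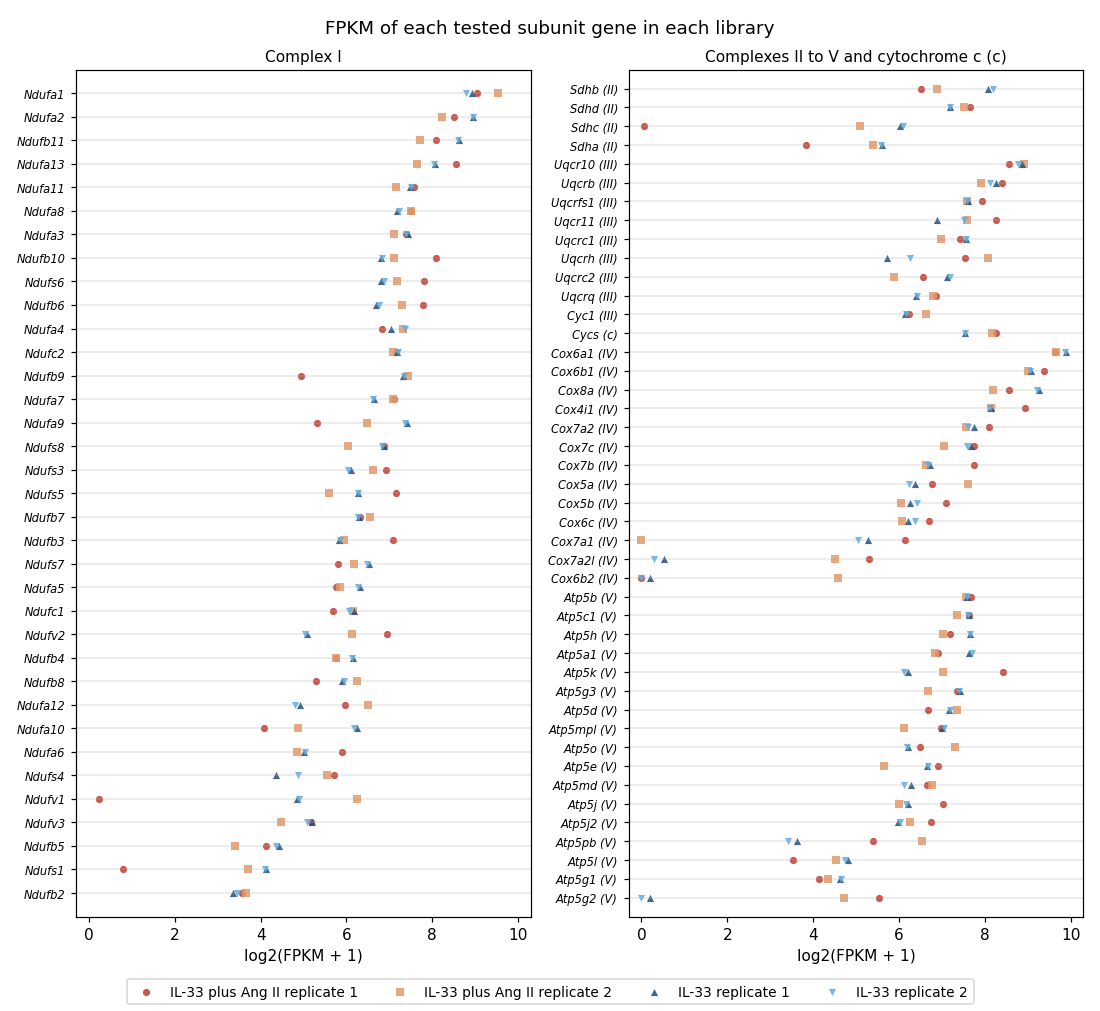
Level of each of 79 tested subunit genes, as log2(FPKM + 1) on the horizontal axis, with 1 symbol per library and genes ordered by mean FPKM within each complex (c marks cytochrome c). The IL-33 symbols nearly coincide, and most Ang II symbols lie within a short distance on either side; Sdhc, Ndufv1 and Ndufs1 in Ang II replicate 1, Cox7a1 in Ang II replicate 2, and Atp5g2 and Cox7a2l in both IL-33 libraries lie far to the left.

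By complex, complex I had the highest summed level and complex IV the next in all 4 libraries. Complex I took 36.0% and 37.8% of the subunit FPKM in the Ang II libraries and 37.2% and 37.1% in the IL-33 libraries, and complex IV took 27.7% and 24.7% in the Ang II libraries and 27.6% and 27.0% in the IL-33 libraries, so both overlapped. Complex V took 16.3% and 15.3% with Ang II and 15.1% in both IL-33 libraries. Complex III took 15.1% and 16.2% with Ang II and 14.0% and 14.4% with IL-33. Complex II took 2.43% and 3.41% with Ang II and 4.55% and 4.80% with IL-33, and cytochrome c 2.43% and 2.63% with Ang II and 1.61% and 1.62% with IL-33. The share of complex II was thus lower in both Ang II libraries, and those of complexes III and V and of cytochrome c were higher. For complexes III and V the smaller Ang II share exceeded the nearest IL-33 share by less than the Ang II shares differed from each other.

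**Figure D2:**
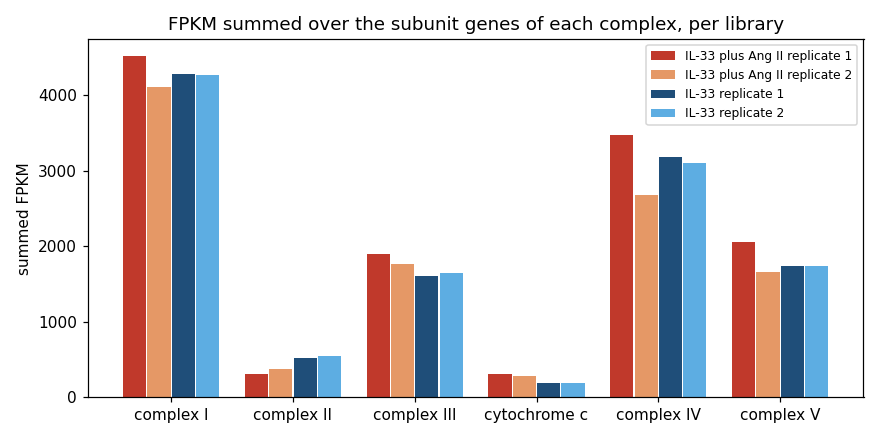
FPKM summed over the subunit genes of each complex, 1 bar per library, with the 2 Ang II bars left of the 2 IL-33 bars. Complex II stood at 305 and 372 FPKM with Ang II and 525 and 552 FPKM with IL-33, and cytochrome c at 306 and 287 FPKM with Ang II against 186 FPKM in both IL-33 libraries, while complexes I, IV and V overlap.

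Complex I takes electrons from NADH in its matrix arm and passes them to ubiquinone. Its 7 nuclear core subunits, most of which carry redox centres, summed to 475 and 405 FPKM with Ang II and to 430 and 416 FPKM with IL-33, so the groups overlapped. Within this core the genes went apart. Ndufv2, which encodes an iron-sulfur subunit of the NADH-oxidising tip, stood at 123 and 69.4 FPKM with Ang II and at 32.9 and 31.9 FPKM with IL-33 (log2 fold change 1.48, SE 0.58; limma adjusted p = 0.623). Both Ang II values were well above the IL-33 values, although the Ang II libraries also differed from each other. Its partner Ndufv1, which encodes the subunit that binds NADH, stood at 0.18 and 74.3 FPKM with Ang II and at 27.7 and 28.5 FPKM with IL-33. The Ang II values thus lay on opposite sides of the IL-33 values. Ndufs1, which encodes the largest iron-sulfur subunit, stood at 0.73 and 11.9 FPKM with Ang II against 16.4 and 16.0 FPKM with IL-33. Both Ang II values were lower than the IL-33 values, with Ang II replicate 2 nearer to IL-33. Ndufs3, a core subunit of the connecting module, stood at 120.3 and 97.2 FPKM with Ang II against 68.1 and 64.9 FPKM with IL-33, higher in both Ang II libraries. Of the 7 core genes 2 lay above and 3 below both IL-33 values. Over all genes tested these shares were 24.4% and 33.5%, and 7 genes are too few to set against them.

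The 29 accessory genes of complex I have products that surround and stabilise the core. They summed to 4046 and 3706 FPKM with Ang II and to 3857 and 3848 FPKM with IL-33. Of them 11 (37.9%) lay above and 9 (31.0%) below both IL-33 values, against 24.4% and 33.5% of all genes tested. Their median log2 fold change was -0.064. The most abundant were Ndufa1, Ndufa2 and Ndufb11, small subunits of which Ndufa1 and Ndufb11 sit in the membrane arm. Ndufa1 stood at 525 and 733 FPKM with Ang II and at 484 and 437 FPKM with IL-33. Ndufa2 stood at 364 and 297 FPKM with Ang II against 491 and 497 FPKM with IL-33. Ndufb11 stood at 271 and 209 FPKM with Ang II against 394 and 388 FPKM with IL-33. Ndufa1 was thus higher and the other two lower in both Ang II libraries. Ndufa10, an accessory subunit on the matrix side of the membrane arm, stood at 15.9 and 28.5 FPKM with Ang II and at 75.0 and 71.4 FPKM with IL-33 (log2 fold change -1.73, SE 0.61; limma adjusted p = 0.574). This was the largest difference without overlap among the accessory genes, followed by Ndufa9, an accessory subunit near the ubiquinone site, at 38.8 and 88.4 FPKM with Ang II against 168 and 163 FPKM with IL-33. Ndufa12 and Ndufs4, accessory subunits of the NADH-oxidising arm, went the other way. Ndufa12 stood at 61.1 and 89.5 FPKM with Ang II and at 29.2 and 27.0 FPKM with IL-33. Ndufs4, whose loss in mice gives a model of Leigh syndrome, stood at 51.4 and 45.9 FPKM with Ang II against 19.6 and 28.3 FPKM with IL-33. Both had higher values in each Ang II library. Ndufb9 was at 29.7 FPKM in Ang II replicate 1 and at 170.5 FPKM in replicate 2, against 158 and 162 FPKM with IL-33, so replicate 1 alone stood apart. Ndufc2 and Ndufa8 had nearly equal Ang II values. Ndufc2 was at 141 and 135 FPKM with Ang II and 144 and 145 FPKM with IL-33, and Ndufa8 at 182 and 179 FPKM with Ang II against 143 and 149 FPKM with IL-33. Ndufa4 carries a complex I name, but its product is known as a component of complex IV, and it stood at 113 and 158 FPKM with Ang II against 130.3 and 165 FPKM with IL-33.

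Complex II, succinate dehydrogenase, is the one complex with no mitochondrially encoded subunit and also works in the tricarboxylic acid cycle. In 3 of its 4 genes both Ang II values were below both IL-33 values, a pattern of 33.5% of all genes tested, and 4 genes are too few to set against that share. Sdhb (ENSMUSG00000009863), which encodes the iron-sulfur subunit, stood at 89.7 and 116 FPKM with Ang II and at 269 and 293 FPKM with IL-33 (log2 fold change -1.45, SE 0.31; limma unadjusted p = 0.0517, adjusted p = 0.374). The Ang II libraries lay close together here, and the gap to IL-33 was several times the gap between them. Sdha, which encodes the flavoprotein that oxidises succinate, stood at 13.2 and 40.9 FPKM with Ang II against 47.3 and 46.9 FPKM with IL-33. Sdhc, which encodes one membrane anchor, stood at 0.04 and 33.3 FPKM with Ang II against 63.6 and 66.8 FPKM with IL-33. In both genes Ang II replicate 1 was far below replicate 2. Sdhd, which encodes the other anchor, was higher in both Ang II libraries, at 202 and 181 FPKM with Ang II against 145 FPKM in both IL-33 libraries (log2 fold change 0.40, SE 0.21). The median log2 fold change of the 4 genes was -1.21, and it was -1.70 in Ang II replicate 1 and -0.57 in replicate 2.

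**Figure D3:**
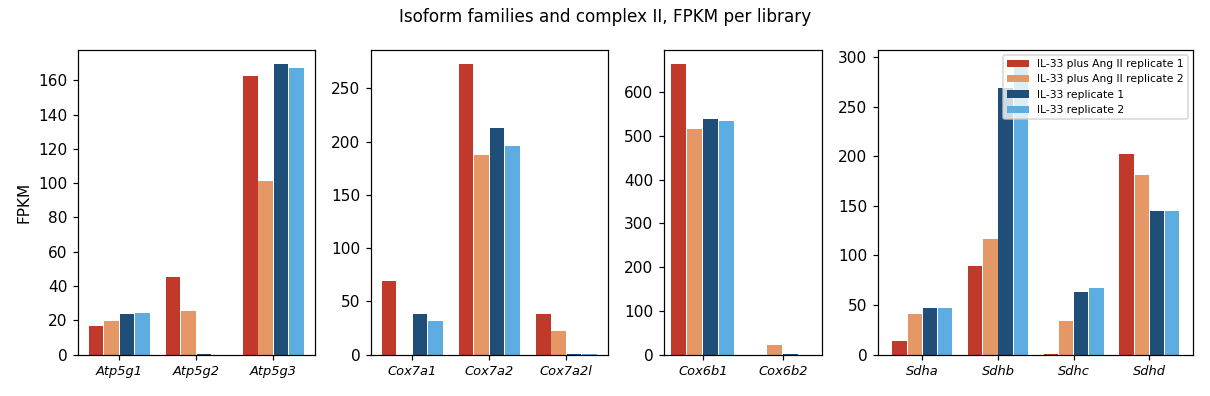
FPKM per library for the c-ring genes of the ATP synthase, the Cox7a and Cox6b families of complex IV and the 4 genes of complex II, with the 2 Ang II bars left of the 2 IL-33 bars and a separate vertical scale in each panel. Atp5g2 and Cox7a2l have visible bars only in the Ang II libraries, Cox7a1 is at 0 in Ang II replicate 2, and Sdhb is lower in both Ang II libraries.

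Complex III passes electrons from ubiquinol to cytochrome c. Its 5 small subunit genes summed to 1322 and 1293 FPKM with Ang II and to 1021 and 1058 FPKM with IL-33, and its 2 core protein genes to 264 and 183 FPKM with Ang II against 325 and 334 FPKM with IL-33, so these parts of the complex lay on opposite sides of IL-33. Uqcrh (ENSMUSG00000063882), which encodes the hinge protein that helps cytochrome c dock, stood at 186 and 270.1 FPKM with Ang II and at 51.9 and 75.2 FPKM with IL-33 (log2 fold change 1.80, SE 0.40; limma unadjusted p = 0.0543, adjusted p = 0.382). The groups were clearly apart, though the IL-33 libraries also differed from each other more than in most genes. The fit on their mean leaves that difference out. Uqcr11, the gene of another small subunit, differed between the IL-33 libraries too, with the lower Ang II value just above the higher IL-33 value, at 308 and 189.9 FPKM with Ang II against 118 and 181 FPKM with IL-33. Uqcrc2, which encodes a core protein, stood at 93.6 and 58.1 FPKM with Ang II and at 137 and 145 FPKM with IL-33, lower in both Ang II libraries. The genes of the redox subunits differed less. Cyc1, which encodes cytochrome c1, stood at 73.7 and 98.1 FPKM with Ang II against 69.4 and 70.6 FPKM with IL-33. Uqcrfs1, which encodes the Rieske iron-sulfur protein, stood at 242 and 192.0 FPKM with Ang II against 194 and 191 FPKM with IL-33. The abundant Uqcr10 and Uqcrb overlapped between groups, at 377 and 481 FPKM with Ang II against 465 and 439 FPKM with IL-33 for Uqcr10 and at 336 and 241 FPKM with Ang II against 305 and 277 FPKM with IL-33 for Uqcrb.

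Cytochrome c itself had one of the smallest standard errors among the subunit genes. Cycs (ENSMUSG00000063694), which encodes the carrier that also triggers apoptosis when it leaves mitochondria, stood at 306 and 287 FPKM with Ang II and at 186 FPKM in both IL-33 libraries. Both Ang II libraries were higher by a similar amount (log2 fold change 0.71 and 0.62 in the separate libraries, 0.67 in the fit, SE 0.18; limma unadjusted p = 0.0757, adjusted p = 0.457).

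Complex IV reduces oxygen, and its nuclear subunits surround a core made in the mitochondrion. The 10 widely expressed subunit genes summed to 3372 and 2639 FPKM with Ang II and to 3139.5 and 3074 FPKM with IL-33. Of these 10, 2 lay above and 2 below both IL-33 values, and 6 overlapped. Over all genes tested 24.4% lay above and 33.5% below. Cox6a1 was the most abundant subunit gene of all, at 793 and 808 FPKM with Ang II and 953 and 939.8 FPKM with IL-33 (log2 fold change -0.24, SE 0.13). Cox8a, which encodes the smallest subunit, stood at 377 and 292 FPKM with Ang II against 617 and 593 FPKM with IL-33. Both genes were lower in each Ang II library. Cox5a, whose product lies on the matrix side, stood at 108 and 194 FPKM with Ang II against 82.0 and 74.6 FPKM with IL-33, higher in both. Cox6b1, whose product faces the intermembrane space, overlapped at 664 and 515 FPKM with Ang II against 539 and 533 FPKM with IL-33. Cox4i1, the gene of the subunit that is needed to start assembly, stood at 492 and 282 FPKM with Ang II and at 281 and 278 FPKM with IL-33, with replicate 2 hardly above IL-33. Cox7a2 overlapped between groups, at 273 and 187 FPKM with Ang II against 213 and 196 FPKM with IL-33. Cox7b overlapped too, at 214 and 98.0 FPKM with Ang II against 104 and 102 FPKM with IL-33.

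Complex IV also has isoforms that are restricted to some tissues. The muscle forms Cox6a2 and Cox8b, the testis forms Cox7b2 and Cox8c, and Cox4i2, a form known from lung, were listed at 0 in all 4 libraries. Cox7a1, the muscle form of subunit 7a, was measured at 69.1 and 0 FPKM with Ang II and at 37.6 and 31.9 FPKM with IL-33, so one Ang II library was the highest and the other the lowest. Cox6b2, a testis form, was listed at 0 in Ang II replicate 1 and at 22.7 FPKM in replicate 2, against 0.14 and 0 FPKM with IL-33, and it passed the filter through that library alone. Cox7a2l (ENSMUSG00000024248) encodes a relative of subunit 7a that is known as a factor for joining complexes III and IV into supercomplexes. Cox7a2l was read here as RNA only, and whether its allele in these mice gives a working product was not tested. It stood at 38.2 and 21.6 FPKM with Ang II and at 0.44 and 0.23 FPKM with IL-33 (log2 fold change 4.48, SE 0.74; limma unadjusted p = 0.0324, adjusted p = 0.282).

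Complex V makes ATP with an F1 head, a rotating c-ring and a peripheral stalk. The 5 F1 genes summed to 739 and 673 FPKM with Ang II and to 826 and 836 FPKM with IL-33. Of these genes only Atp5a1, which encodes the alpha subunit, had groups that did not overlap, at 118 and 113 FPKM with Ang II against 197 and 206 FPKM with IL-33 (log2 fold change -0.80, SE 0.21; limma adjusted p = 0.441). Its catalytic partner Atp5b stood at 203 and 187 FPKM with Ang II and at 189.9 FPKM in both IL-33 libraries. Atp5c1, the gene of the rotor shaft, stood at 198 and 162 FPKM with Ang II against 198 and 194 FPKM with IL-33. The 5 genes of small membrane subunits summed to 683 and 402 FPKM with Ang II and to 367 and 358 FPKM with IL-33. Atp5k, which encodes subunit e of the dimer interface, made up most of that difference, at 341 and 128 FPKM with Ang II against 73.0 and 68.1 FPKM with IL-33. Among the stalk genes, Atp5pb, which encodes subunit b, stood at 41.0 and 92.1 FPKM with Ang II and at 11.4 and 9.72 FPKM with IL-33 (log2 fold change 2.44, SE 0.80; limma adjusted p = 0.543). Atp5h, which encodes subunit d, stood at 146 and 129.9 FPKM with Ang II against 201 and 199.7 FPKM with IL-33. The stalk genes thus went in both directions, with Atp5pb higher and Atp5h lower in each Ang II library.

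The c-ring is built from a single protein that 3 genes encode, and these genes had different patterns. Atp5g2 (ENSMUSG00000062683) stood at 45.2 and 25.5 FPKM with Ang II, against 0.15 FPKM in IL-33 replicate 1 and 0 listed in replicate 2 (log2 fold change 5.03, SE 0.73; limma unadjusted p = 0.0263, adjusted p = 0.241). Atp5g3, the most abundant of the 3, stood at 163 and 101 FPKM with Ang II against 169.6 and 167 FPKM with IL-33. Atp5g1 stood at 16.7 and 19.5 FPKM with Ang II against 23.8 and 24.0 FPKM with IL-33. Atp5g2 exceeded 1 FPKM in the Ang II libraries and in neither IL-33 library, while the other two genes were lower there. Summed over the 3 genes the level was 225 and 146 FPKM with Ang II and 194 and 191 FPKM with IL-33, so the ring as a whole overlapped between groups. Atp5g2 and Cox7a2l were the 2 of 80 subunit genes (2.5%) that were under 1 FPKM in both IL-33 libraries and at 20 FPKM or more in both Ang II libraries, a pattern of 85 of all 9215 genes tested (0.922%). The reverse pattern was found in 0 of 80 subunit genes and in 174 of all genes tested (1.89%). Genes of either pattern passed the filter only through the group where they were high.

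**Figure D4:**
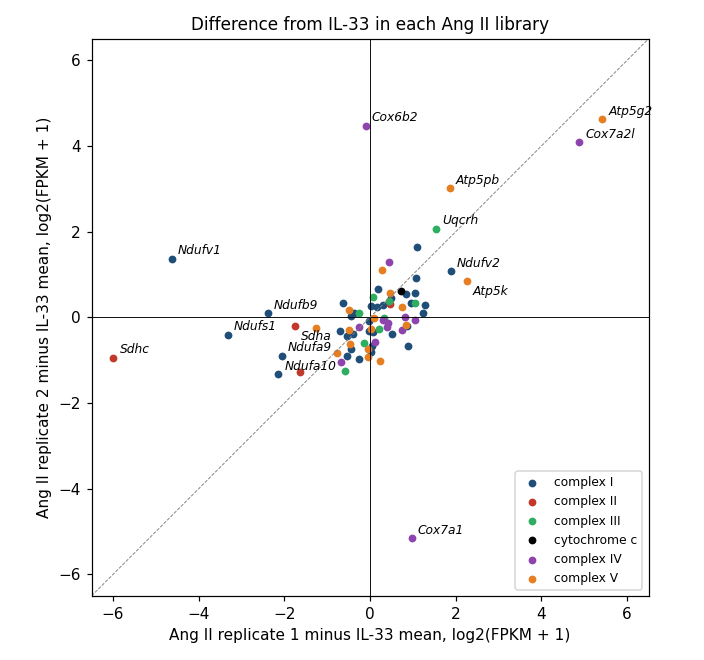
Difference of each of 79 tested subunit genes from the IL-33 mean on the log2(FPKM + 1) scale, in Ang II replicate 1 (horizontal) and in Ang II replicate 2 (vertical), coloured by complex, with equal values on the dashed line. Most genes lie near the centre, Atp5g2 and Cox7a2l lie far out near the line (4.63 and 4.08 in replicate 2), and Sdhc, Ndufv1, Cox7a1 and Cox6b2 are far from IL-33 mainly in 1 library.

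Promoter sequence was read for the subunit genes because many are known targets of nuclear respiratory factor 1 (NRF1), GABP of the ETS family, and YY1. RefSeq windows on build GRCm38.p6, from 250 bases before to 50 bases after the start, were found for 69 of 85 symbols. The NRF1 motif was searched as GCGCANGCG, the ETS motif as CCGGAAG and the YY1 motif as AANATGGCG, each on both strands, and overlapping matches were kept. NRF1 matched 30.4% of the subunit windows, 16.4% of the 5961 tested genes with a window and 7.03% of all 27025 genes with a window. For YY1 these shares were 14.5%, 7.26% and 2.76%, and for ETS they were 24.6%, 23.5% and 9.93%. By direction, NRF1 matched 9 of 25 windows of genes above both IL-33 values and 8 of 18 of genes below. It matched 4 of 24 where groups overlapped. In the same order ETS matched 8, 5 and 4 windows, and YY1 matched 4, 3 and 3. Of the genes whose groups did not overlap, 4 are shown to cover both directions, all on the minus strand, Cycs at chr6:50566520-50566819, Uqcrh at chr4:116075021-116075320 and Atp5g2 at chr15:102670998-102671297 with higher Ang II values and Cox6a1 at chr5:115348909-115349208 with lower ones. Each window reads 5′ to 3′ along its gene, and capitals mark the motif matches.
Cycs: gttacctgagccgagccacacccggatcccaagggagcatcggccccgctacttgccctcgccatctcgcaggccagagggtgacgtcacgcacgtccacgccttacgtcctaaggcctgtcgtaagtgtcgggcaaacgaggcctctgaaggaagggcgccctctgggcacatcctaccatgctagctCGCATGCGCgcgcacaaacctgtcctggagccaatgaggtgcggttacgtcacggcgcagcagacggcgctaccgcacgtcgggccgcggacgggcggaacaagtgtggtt
Uqcrh: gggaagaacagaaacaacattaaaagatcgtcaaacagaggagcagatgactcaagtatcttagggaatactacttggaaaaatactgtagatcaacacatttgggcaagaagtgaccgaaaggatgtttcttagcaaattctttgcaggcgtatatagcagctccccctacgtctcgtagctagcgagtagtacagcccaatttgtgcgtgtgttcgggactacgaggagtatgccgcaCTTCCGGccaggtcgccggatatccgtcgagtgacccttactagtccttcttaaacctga
Atp5g2: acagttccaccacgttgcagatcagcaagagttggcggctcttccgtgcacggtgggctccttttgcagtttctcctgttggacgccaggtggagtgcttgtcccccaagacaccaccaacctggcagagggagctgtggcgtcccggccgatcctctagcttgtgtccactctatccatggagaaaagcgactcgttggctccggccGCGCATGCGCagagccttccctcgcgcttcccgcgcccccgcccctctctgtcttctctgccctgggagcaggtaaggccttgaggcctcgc
Cox6a1: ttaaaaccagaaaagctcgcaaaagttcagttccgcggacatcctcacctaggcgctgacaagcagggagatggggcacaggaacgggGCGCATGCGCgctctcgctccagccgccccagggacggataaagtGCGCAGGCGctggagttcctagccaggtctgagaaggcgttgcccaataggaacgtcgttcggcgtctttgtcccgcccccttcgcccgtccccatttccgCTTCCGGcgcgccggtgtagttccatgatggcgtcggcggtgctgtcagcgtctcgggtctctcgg
The Cycs and Atp5g2 windows hold an NRF1 match and no ETS match. The 2 overlapping NRF1 matches in Atp5g2 are 1 palindromic site read on both strands. Uqcrh holds 1 ETS match close to the start and no NRF1 match. Cox6a1 holds 3 NRF1 matches, 2 of them from the same kind of palindromic site, and 1 ETS match. The gene with lower Ang II values thus carries the most matches of the 4, but only 1 such gene is shown. A match describes letters only and shows no binding.

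Several subunit genes have close copies, and the authors' counting could have split reads among them. The 7 pseudogene rows summed to 62.4 and 47.0 FPKM with Ang II and to 45.1 and 49.4 FPKM with IL-33, and 4 of them passed the filter. Cox6c2, a copy of Cox6c, was the most abundant, at 43.9 and 29.0 FPKM with Ang II against 36.9 and 43.5 FPKM with IL-33, beside 102 and 66.2 FPKM with Ang II against 72.7 and 81.5 FPKM with IL-33 for Cox6c. Atp5k-ps2 stood at 12.8 and 4.56 FPKM with Ang II against 2.67 and 1.62 FPKM with IL-33, in the same order as Atp5k in each group. Cox7c-ps1 stood at 4.22 and 10.7 FPKM with Ang II and at 1.64 and 1.28 FPKM with IL-33, while Cox7c overlapped at 214 and 132 FPKM with Ang II against 203 and 192 FPKM with IL-33. Values of these genes and of Uqcrh, Atp5l and Atp5pb, which also have named copies, are uncertain to that extent. Coding length, which the choice of genes did not use, was related to the log2 fold change with Spearman rho = -0.26 over the 80 genes (-0.31 and -0.12 in Ang II replicates 1 and 2) and -0.086 over 2358 genes that averaged 20 FPKM or more, as a description of these libraries.

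The mitochondrially encoded subunits, partners of these genes in complexes I, III, IV and V, summed to 10790 and 16597 FPKM with Ang II and to 16222 and 13932 FPKM with IL-33, and overlapped. Of 13, 1 was above and 5 (38.5%) below both IL-33 values, and 0 passed; over all genes tested, 24.4% were above and 33.5% below, and the counts of the lists that follow can be read against the same shares. Of the tricarboxylic acid cycle and pyruvate dehydrogenase genes, 15 of 16 were measured, with 5 above, 3 below, 0 passing and a median log2 fold change of 0.055. Mdh2, which encodes malate dehydrogenase, stood at 226 and 242 FPKM with Ang II against 209.8 and 208 FPKM with IL-33. Idh3g stood at 107 and 90.2 FPKM with Ang II against 75.6 and 75.0 FPKM with IL-33. Idh3a was lower in both Ang II libraries, at 16.9 and 0.03 FPKM against 25.5 and 25.7 FPKM with IL-33. Of the 75 mitochondrial ribosomal protein genes, which serve the synthesis of the mitochondrial subunits, 22 (29.3%) were above, 31 (41.3%) below and 0 passing, with a median of -0.28. Mrpl44, the gene of a large-subunit protein, was at 0 in each Ang II library, against 43.8 and 48.1 FPKM with IL-33. Mrpl39, the gene of another large-subunit protein, differed about as much the other way, at 36.4 and 48.8 FPKM with Ang II against 0 and 0.03 FPKM with IL-33.

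The assembly factors differed in both directions. Of 16 complex I factors 9 were measured, with 1 above, 4 below and 0 passing. Ndufaf4 was at 7.18 and 19.3 FPKM with Ang II and listed at 0 with IL-33, while Ndufaf7 was listed at 0 with Ang II and measured at 12.1 and 11.3 FPKM with IL-33. All 3 measured of 4 complex II factors lay above both IL-33 values, although Sdhaf2 and Sdhaf4 did so through Ang II replicate 2. Sdhaf1, which helps insert the iron-sulfur clusters of Sdhb, stood at 29.7 and 66.8 FPKM with Ang II against 27.6 and 26.7 FPKM with IL-33. Of 6 complex III factors 4 were measured, with 2 above, 1 below and 0 passing. Uqcc2, which is needed for cytochrome b synthesis, stood at 101 and 99.8 FPKM with Ang II against 30.1 and 34.7 FPKM with IL-33 (log2 fold change 1.60, unadjusted p = 0.0301, adjusted p = 0.268 by limma), higher in both Ang II libraries. Of 20 complex IV factors 18 were measured, with 3 above, 7 below and 0 passing. Cox11, a copper chaperone factor, stood at 22.3 and 24.0 FPKM with Ang II against 63.7 and 58.4 FPKM with IL-33, and Sco2, another copper factor, at 0 and 1.02 FPKM with Ang II against 21.2 and 21.3 FPKM with IL-33. All 4 assembly and inhibitor genes of complex V were measured, with 1 above, 1 below and 0 passing. Atpif1, which encodes the inhibitor of ATP hydrolysis, stood at 70.9 and 43.2 FPKM with Ang II against 52.8 and 58.6 FPKM with IL-33.

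Of 12 regulators of mitochondrial biogenesis 10 were measured, with 5 above, 2 below and 0 passing, and the coactivator genes Ppargc1a and Ppargc1b were listed at 0 in all 4 libraries. Gabpa, which encodes the DNA-binding part of GABP, stood at 17.7 and 27.7 FPKM with Ang II and at 0.05 and 0.03 FPKM with IL-33 (log2 fold change 4.48, unadjusted p = 0.0308, adjusted p = 0.272 by limma). Nrf1 was at 0.01 and 14.0 FPKM with Ang II and listed at 0 with IL-33, and Tfam, which encodes the packaging factor of mitochondrial DNA, was at 0.03 and 23.1 FPKM with Ang II against 16.2 and 16.7 FPKM with IL-33. For both, Ang II replicate 2 was far above replicate 1. Tfb1m went the other way from Gabpa, listed at 0 in both Ang II libraries against 7.17 and 7.89 FPKM with IL-33 (log2 fold change -3.09). Of 11 carriers and electron feeders 10 were measured, with 5 above, 4 below and 0 passing. Slc25a5, which encodes an ADP/ATP carrier, stood at 522 and 409 FPKM with Ang II and at 390.1 and 393 FPKM with IL-33, and Vdac1, the gene of an outer membrane channel, at 27.9 and 18.4 FPKM with Ang II against 0.17 and 0.19 FPKM with IL-33.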

How the data were processed

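RNA-seq of lung ILC2s was deposited as FPKM per gene and library, as the authors' file headers name the unit, with 2 Ang II and 2 IL-33 libraries. The submitters' processing notes name mm10, HISAT, StringTie and edgeR, and give no version or role. Per the labels' protocols, SMARTer cDNA from 500 cells was amplified by PCR, which can widen the spread between libraries. FPKM are not counts, so no count model was used, and depth is unknown. Columns were matched to samples by name. IL-33 libraries were averaged as 1 sample because they lay near counting noise while the Ang II pair did not, at 15795727 fragments assumed for both pairs. This was read only in genes with a mean transcript length above 1 kilobase. That depth was estimated from genes listed at 0 in one IL-33 library only, so it does not test the IL-33 pair independently. The 9215 genes averaging 1 FPKM or more were tested with limma 3.58.1 in R 4.3.3 on log2(FPKM + 1) with a mean-variance trend, two-sided, adjusted over all genes at 0.05. A run on simulated data checked only that known fold changes were recovered. Its spreads were set by hand and were not those of the Ang II libraries, so it does not test the p-values. Tested genes under 1 FPKM in both libraries of a group passed that filter through the other group alone. Atp5g2, Cox7a2l, Gabpa, Vdac1 and Ndufaf4 did so through Ang II. P-values measure the spread between these libraries, which may be technical. Annotation came from GENCODE M21, found for 55141 of the 55401 gene models. The subunit genes, lists and tests were chosen with earlier results of these data known. Named genes are the 3 most abundant per complex, all of complex II, Cyc1, Cycs, up to 3 per complex with the largest change without overlap and a mean of 5 FPKM or more, genes below 1 FPKM in a library despite a mean of at least 20, and isoform families; in other lists, up to 3 abundant and 2 changed genes. Genes outside this rule were chosen after their values were seen: Ndufa8, Ndufa9, Ndufa12, Ndufa4, Ndufb9, Ndufc2, Ndufs3, Ndufs4, Atp5a1, Cox6c, Cox7c, Nrf1, Mrpl39, genes listed at 0 and the pseudogenes. A single subunit gene enters sums and counts but is not reported here by itself.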

Additional observations from a re-analysis of the deposited data

How the results depend on the processing

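No subunit gene passed the adjusted threshold under pseudocount 0.1, no filter, a mean of at least 5 FPKM, either rescaling, or without IL-33 replicate 1 or 2, nor did any other gene. With the IL-33 libraries as 2 samples, limma called 1665 of 9095 genes (18.3%), among them 6 of 80 subunit genes (7.5%; Cycs, Cox7a2l and Atp5g2 higher; Sdhb, Atp5a1 and Cox6a1 lower). With the replicate block added to that fit, 0 genes were called. The numbers share only a label: differences between replicates 1 and 2 correlated at -0.019 between groups. Without either Ang II library no test remains.

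The median log2 fold change of the subunit genes was 0.074 rescaled to equal library sums, where the median of all genes tested was 0.16, and -0.053 rescaled to the median of abundant genes. Leaving out 1 library gave -0.084 to 0.11, and -0.14 to 0.027 for complex I, -1.70 to -0.57 for complex II, 0.091 to 0.21 for complex III, -0.12 to 0.43 for complex IV and -0.19 to 0.096 for complex V. Complex I gave -0.062 and -0.19 under the rescalings. The count above both IL-33 values ranged from 28 to 45 and that below from 26 to 43 when 1 library was left out, the highest without Ang II replicate 2 for the first and without replicate 1 for the second, since a single library then decides. The log2 ratio of summed FPKM ranged from -0.082 to 0.13. Of 37 named genes followed through the settings, Uqcrb turned to 0.039 rescaled to equal library sums and to 0.037 without IL-33 replicate 1 (-0.27 to 0.21 over the 4 libraries left out), and Atp5b to -0.018 rescaled to the median of abundant genes. Without Ang II replicate 1, 7 changed sign: Ndufv1 to 1.37, Uqcr10 to 0.091, Cox7a2 to -0.12, Cox7b to -0.072, Cox6b1 to -0.058, Atp5b to -0.021 and Uqcrfs1 to -0.0036. Without Ang II replicate 2, 3 did: Cox7a1 to 0.97, Uqcrb to 0.21 and Atp5c1 to 0.016. Cox6b2 had a difference from IL-33 of -0.098 in Ang II replicate 1 and 4.47 in replicate 2. The log2 fold change of Atp5g2 was 5.03 in the main fit, 7.6 with pseudocount 0.1 and 6.16 rescaled to equal library sums. For Cox7a2l these were 4.48, 6.05 and 5.32. With IL-33 values near 0, the size of these changes depends on the pseudocount. The settings with the 7 pseudogene rows (30 above, 26 below) and without Cox6b2 were chosen after seeing the data. Unknown depth and the spread between the Ang II libraries limit what these values can show.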
